A study of Mus musculus with 6 samples.

Results

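The comparison described here is the loss of Bax in mouse retina that already lacked Atoh7. Libraries labelled Bax null Atoh7 null (2, called double null below) were set against libraries labelled Bax het Atoh7 null (2, called Bax het below). They were chosen by genotype label and made up 4 of the 6 labelled libraries of the series and 47513 of their 67050 cells. Single cells of embryonic day 14 (E14) retina were sequenced with a droplet method in which each captured transcript is counted once through a unique molecular identifier (UMI). All 4 libraries shared the Atoh7 null genotype, the Bax het libraries were heterozygous for Bax, and none of the 6 labelled libraries had both genes intact. The third genotype, labelled Bax null with no Atoh7 state named (2 libraries), entered only the filter on low counts, the scaling and the estimate of the spread between libraries. How the alleles were made, the strain background and the number of embryos pooled per library are not given in the sources used here, so the p-values measure the spread between these libraries and no more.

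BAX is a pore-forming member of the Bcl2 family. When BH3-only proteins such as PUMA (encoded by Bbc3) and Harakiri (Hrk) are activated, BAX permeabilises the outer mitochondrial membrane and commits the cell to apoptosis. Atoh7 encodes the basic helix-loop-helix factor that makes retinal progenitors competent to become ganglion cells, and mature retinas without it have very few of them. The integrated stress response runs through the translational regulator eIF2 alpha to the transcription factor ATF4, whose targets include the transcription factors Atf3, Atf5 and Ddit3 (CHOP) and enzymes of amino acid and one-carbon metabolism.

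Libraries held between 9622 and 14730 cells and between 22463515 and 33415227 UMIs, with medians per cell of 2632 and 2206 UMIs (Bax het) and 1940 and 1634 UMIs (double null). The cell types are those of the authors' cell table. At least 1 marker of each type set it apart in all 4 libraries. Isl1 stood between 459 and 569 CPM in ganglion cells and at 33.7 CPM or less in the other types. CPM are UMI counts scaled to the same total in every library. Crx stood at 342 CPM or more in cones and 14.5 or less elsewhere, and Fgf15 at 1771 or more in progenitors and 639.6 or less elsewhere. Neurog2 stood at 685 or more in neurogenic cells and 218 or less elsewhere. Tfap2b, also an amacrine cell gene, stood at 561 or more in horizontal cells and 132 or less elsewhere. Not every marker did so. Gadd45g stood between 294 and 350 CPM in neurogenic cells and between 237 and 301 in ganglion cells. Ccnd1 stood between 1428 and 2056 CPM in progenitors and between 1040 and 1462 in neurogenic cells. The horizontal cell gene Onecut2 was also high in ganglion cells, between 1078 and 1335 CPM against 1509 to 1919. Atoh7 had 0 UMIs in all 4 libraries, which allows at most between 0.0898 and 0.134 CPM (3 UMIs of the library total). Xist, which is expressed from the inactive X chromosome, had 629.9 and 2600 unscaled CPM over all cells in Bax het and 1580 and 1619 CPM in double null, so the Bax het libraries differed from each other in this measure; its part in the results was not tested.

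The double null libraries were not independent in all their cells. They had 2596 cell barcodes in common, whereas every other pair of the 6 libraries had between 126 and 223 in common. Of these cells, 89.4% carried the same type label in both libraries, and the median correlation between the centred log profiles of the paired cells was 0.28, against values between -0.00244 and 0.00166 for barcodes shared by the other pairs of the 4 libraries. In 2468 of the 2596 pairs this correlation was above 0.15, which no pair of cells from any other pair of the 4 libraries reached. The cell in replicate 1 had a median of 0.380 times the UMIs of its partner in replicate 2 (quartiles 0.372 to 0.390). The shared barcodes made up 17.6% of the cells and 11.2% of the UMIs of double null replicate 1, and 20.6% of its ganglion cells. Results are therefore also given with these cells left out of replicate 1, a choice made after seeing the data.

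**Figure D1:**
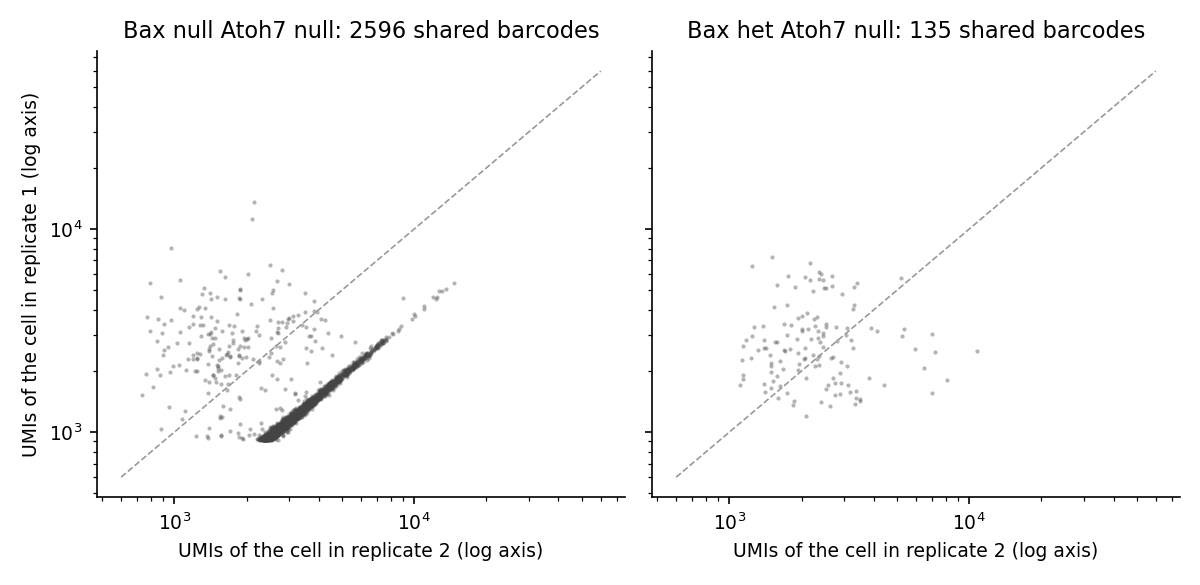
UMIs per cell for barcodes found in both libraries of a genotype, replicate 1 against replicate 2, both axes logarithmic, 1 point per barcode; the dashed line marks equal totals. Most of the 2596 barcodes shared by the double null libraries lie on a narrow line at a ratio near 0.380, whereas the 135 shared by the Bax het libraries scatter.

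Bax was read at different levels in the double null libraries. In ganglion cells it stood at 230.1 and 171.3 CPM in Bax het and at 73.8 and 23.4 CPM in double null (here and below, levels by library carry the TMM scaling of edgeR unless called unscaled). This was a log2 difference of -2.02 (SE 0.30, adjusted p 0.00345), and both double null libraries lay below both Bax het libraries, with replicate 1 nearer to them. The neighbouring gene Ftl1, which encodes the ferritin light chain and starts 1.81 kb from Bax, had ganglion cell levels of 2724 and 2029 CPM in Bax het but 686 and 45.7 CPM in double null (adjusted p 0.0818). At least 1 Ftl1 UMI was found in 95.4% and 90.3% of Bax het cells, in 40.6% of the cells of double null replicate 1 and in 7.30% of those of replicate 2. The Bax level of the library labelled double null replicate 1 therefore went partly against its label. In progenitors the Bax difference was -2.29 with an adjusted p of 0.0816, and it was called without either double null library (adjusted p 1.07e-05 without replicate 1 and 0.00315 without replicate 2).

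Most genes that differed were lower in double null. A gene is described as called, as higher or as lower when the edgeR quasi-likelihood test gave it an adjusted p under 0.05. In ganglion cells 26 of 10586 genes were higher (0.246%) and 222 lower (2.1%, 2.34% both ways), in neurogenic cells 1 of 11670 was higher (0.00857%) and 205 lower (1.76%, 1.77% both ways), and in progenitors 8 of 13396 were higher (0.0597%) and 261 lower (1.95%, 2.01% both ways). In cones 3 of 9421 were higher (0.0318%) and 135 lower (1.43%, 1.46% both ways), and in horizontal cells 6 of 8960 were higher (0.067%) and 138 lower (1.54%, 1.61% both ways). Summed over all cells, 5 of 14284 were higher (0.035%) and 229 lower (1.6%, 1.64% both ways). The median log2 difference over all genes lay between -0.00165 and 0.0161 in the 5 types. With the shared barcodes left out, 20 of the 26 higher and 173 of the 222 lower ganglion cell genes were still called. In progenitors 1 of the 8 higher and 97 of the 261 lower genes were still called. Without Bax het replicate 2 the counts fell to 73 genes in ganglion cells, 7 in neurogenic cells and 2 in progenitors.

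Ganglion cells of the double null retina had higher transcripts of the integrated stress response. Of 36 genes of this response, 34 were tested in ganglion cells, 10 were higher (against 0.246% of all genes) and 1 was lower, and the median log2 difference of the 34 was 0.56 against 0.000818 over all genes. Atf3, a stress-induced transcription factor that the ATF4 pathway and the JNK pathway both induce, stood at 16.3 and 16.8 CPM in Bax het and at 40.4 and 46.1 CPM in double null, a log2 difference of 1.38 (SE 0.17, adjusted p 0.00135). Its groups lay far apart relative to the gap within them. Atf4 itself stood at 152 and 164 against 239 and 200 CPM (0.48, SE 0.11, adjusted p 0.0366). Atf5, an ATF4 target that encodes another stress factor and lies 645 kb from Bax, stood at 62.3 and 58.9 against 99.7 and 121 CPM (0.87, SE 0.14, adjusted p 0.00509). Ddit3, which encodes the pro-apoptotic factor CHOP, stood at 105 and 81.9 against 161 and 144 CPM (0.73, SE 0.12, adjusted p 0.00615). For each of these 4 transcription factor genes both double null libraries lay above both Bax het libraries. Cebpb, a partner of ATF4 in heterodimers, was at very low levels of 0.959 and 3.94 CPM in Bax het and at 9.32 and 19.8 CPM in double null (2.40, SE 0.50, adjusted p 0.0256).

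Metabolic targets of the response moved in the same direction. Asns, which encodes asparagine synthetase, stood at 76.7 and 83.5 CPM in Bax het and 116 and 121 CPM in double null ganglion cells (0.56, SE 0.10, adjusted p 0.011). Mthfd2, a mitochondrial enzyme of one-carbon metabolism, stood at 93.0 and 83.8 against 133 and 125 CPM (0.55, SE 0.10, adjusted p 0.0122), and Gars, the glycyl-tRNA synthetase, at 142 and 140 against 192 and 209 CPM (0.51, SE 0.10, adjusted p 0.0128). Pck2, the mitochondrial PEP carboxykinase, and Ddit4, an inhibitor of mTORC1 signalling, rose by 0.84 and 0.51 (adjusted p 0.0391 and 0.0395). Of the 34 tested members 31 had a difference above 0. The asparaginyl-tRNA synthetase gene Nars was the only member called lower, by 0.42 on the log2 scale (fitted value -0.42, adjusted p 0.0288), at 192 and 200 against 144 and 149 CPM. For the synthetase genes Sars and Wars both double null libraries also lay below both Bax het libraries, without passing the test (-0.21 and -0.11, adjusted p 0.389 and 0.818). Trib3 (0.78, adjusted p 0.0972), Chac1 (0.78, adjusted p 0.123), Sesn2 (0.64, adjusted p 0.231) and Slc7a3 (1.14, adjusted p 0.0503) did not pass the test, although both double null libraries lay above both Bax het libraries for each. Eif4ebp1, a translational repressor and ATF4 target outside the list and named after its values were seen, was higher too (0.59, SE 0.12, adjusted p 0.0182).

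These calls differed in how firmly they held. Atf3 was called under all 15 alternatives of processing. Without Bax het replicate 2 it was the only 1 of the 10 higher list genes still called, with adjusted p-values of 0.112 for Ddit3, 0.0769 for Atf5, 0.0622 for Asns, 0.178 for Mthfd2 and 0.147 for Gars. With the shared barcodes left out 8 of the 34 were higher and 1 lower, the call of Pck2 being lost at an adjusted p of 0.055 and that of Atf4 at 0.0531. Without Bax het replicate 1, Atf4 (0.224), Asns (0.0845), Gars (0.0804), Cebpb (0.158) and Pck2 (0.125) lost their calls by adjusted p. Cebpb (0.0995) and Pck2 (0.117) also lost them without double null replicate 2, and Atf4 (0.0879) and Ddit4 (0.0659) without double null replicate 1. DESeq2 and the fit on only the 4 compared libraries each called 6 of the 34 list genes higher and kept 12 of the 26 higher ganglion cell genes. The list genes Atf4 (adjusted p 0.0679 and 0.103), Ddit4 (0.154 and 0.0853) and Pck2 (0.211 and 0.075) lost their calls under both, Cebpb (0.0523) under the latter, where DESeq2 gave no adjusted p, and Nars (0.131 and 0.111) under both. Hrk lost its call too (0.067 and 0.0802). The median of the list lay between 0.53 and 0.65 over the 15 alternatives.

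**Figure D2:**
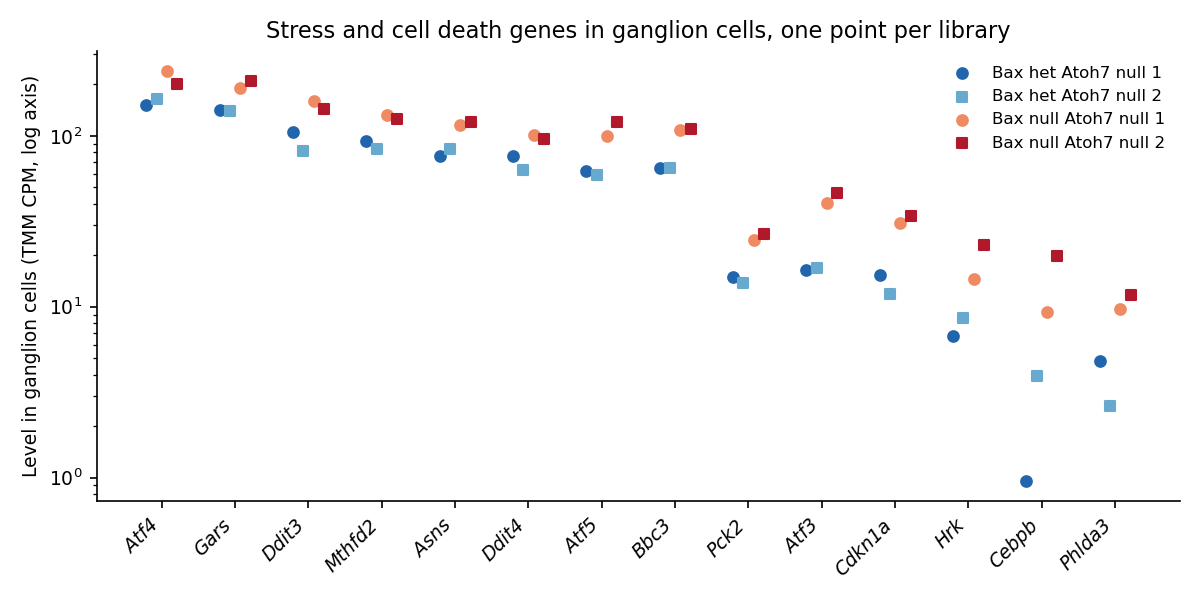
Levels of stress and cell death genes in ganglion cells (TMM-scaled CPM, logarithmic axis), 1 point per library. The 14 genes plotted were taken from those called higher in ganglion cells. That both double null points (orange circle and red square) lie above both Bax het points (blue) is therefore tied to this choice. Members that were lower or not called, such as Nars and Trib3, are not plotted.

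The promoters of the higher stress genes are shown because these genes moved together. RefSeq promoter windows (assembly GRCm38.p6, 250 bases before to 50 after the gene start, printed 5' to 3' on the gene's strand) were searched on both strands for TGATGNAA, the core of the composite site bound by ATF4 with C/EBP proteins, here in capitals in either direction. Of the 10 higher stress genes 4 held it (Atf3, Asns, Gars and Pck2), as did 11 of the 29 stress list genes with a window, 6 of the 22 higher ganglion cell genes with a window, 2.43% of the 8100 tested ganglion cell genes with a window and 3.97% of all 32851 windows. Atf3 (chr1:191183284-191183583, minus strand, match starting at -110 relative to the gene start), Asns (chr6:7693160-7693459, minus strand, match at -23) and Gars (chr6:55037751-55038050, plus strand, match at -30) read as follows.
Atf3: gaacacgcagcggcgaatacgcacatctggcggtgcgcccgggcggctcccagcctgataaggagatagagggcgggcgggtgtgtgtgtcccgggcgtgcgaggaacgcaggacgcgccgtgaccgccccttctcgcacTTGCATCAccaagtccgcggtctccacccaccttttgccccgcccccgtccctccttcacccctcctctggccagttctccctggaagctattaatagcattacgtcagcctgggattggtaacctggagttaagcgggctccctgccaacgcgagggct
Asns: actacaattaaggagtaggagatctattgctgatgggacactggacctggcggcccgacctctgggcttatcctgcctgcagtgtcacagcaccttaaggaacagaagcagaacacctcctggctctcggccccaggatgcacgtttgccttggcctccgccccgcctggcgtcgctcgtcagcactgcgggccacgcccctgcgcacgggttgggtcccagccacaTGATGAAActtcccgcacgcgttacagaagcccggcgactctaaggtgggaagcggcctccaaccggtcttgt
Gars: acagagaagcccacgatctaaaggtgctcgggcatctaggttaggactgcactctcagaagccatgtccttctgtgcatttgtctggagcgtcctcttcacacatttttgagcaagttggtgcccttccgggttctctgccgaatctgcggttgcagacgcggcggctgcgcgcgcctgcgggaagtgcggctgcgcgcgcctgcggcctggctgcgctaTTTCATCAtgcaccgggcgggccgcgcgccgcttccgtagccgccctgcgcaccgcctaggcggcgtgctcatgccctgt
These matches describe sequence alone, and a window without one says only that these letters are not in it.

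The genes Bbc3 and Hrk, whose products act upstream of BAX in apoptosis, were higher as well. Of 18 genes of the Bcl2 family, 14 were tested in ganglion cells, where Bbc3 and Hrk were higher (against 0.246% of all genes) and Bax lower (against 2.1%), with a list median of 0.0071. Other BH3-only genes did not pass the test, with differences of -0.08 for Bid, -0.09 for Bad and 0.35 for Bcl2l11 (adjusted p 0.941, 0.817 and 0.64). Bbc3 stood at 64.7 and 64.4 CPM in Bax het and 108 and 110 CPM in double null (0.76, SE 0.11, adjusted p 0.0023), with gaps within the groups that were small beside the gap between them, and it was called under all 15 alternatives. Hrk, a BH3-only gene of neurons, stood at 6.71 and 8.55 against 14.5 and 23.0 CPM (1.26, SE 0.29, adjusted p 0.0426), and its call was lost with the shared barcodes left out (adjusted p 0.09). Bbc3 is also a target of p53. Of 32 p53 target genes, 22 were tested and 3 were higher (against 0.246% of all genes), with a list median of 0.05: Bbc3, Cdkn1a and Phlda3. Cdkn1a, which encodes the cell cycle inhibitor p21, stood at 15.3 and 11.8 against 30.7 and 34.0 CPM (1.28, SE 0.19, adjusted p 0.00378), and Phlda3, a repressor of Akt, at 4.79 and 2.63 against 9.66 and 11.7 CPM (1.59, SE 0.37, adjusted p 0.0456). Without Bax het replicate 2 the adjusted p was 0.08 for Cdkn1a, 0.442 for Phlda3 and 0.198 for Hrk. Phlda3 and Hrk also lost their calls without Bax het replicate 1 (0.0747 and 0.196) and without double null replicate 2 (0.121 and 0.203), and Phlda3 with the shared barcodes left out (0.0512).

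Other death and injury programmes gave no call in ganglion cells. None of the 16 tested genes of caspases and the apoptosome passed the test (list median 0.05), nor did any of the 19 JNK and AP-1 genes (0.08), the 18 axon injury and regeneration genes (0.12) or the 18 genes of the unfolded protein response of the endoplasmic reticulum (-0.05). Of the 14 tested genes of heat shock and dissociation, Atf3 was the only call (list median 0.06). The summed level of that list in ganglion cells was nevertheless 9473 and 8283 unscaled CPM in Bax het and 10759 and 10648 CPM in double null, and its groups did not overlap in any of the 5 types. The JNK and AP-1 genes summed to 1654 and 1636 against 2064 and 2048 CPM in ganglion cells, again without overlap. Nor did these sums overlap in neurogenic cells, cones (1650 and 1548 against 1837 and 1924 CPM) or horizontal cells, but they did in progenitors. The axon injury and regeneration genes (6982 and 7205 against 7523 and 8621 CPM in ganglion cells) did not overlap there, in progenitors or in cones. Their groups overlapped in neurogenic and horizontal cells. The genes of caspases and the apoptosome (712 and 702 against 753 and 732 CPM in ganglion cells) did not overlap in any of the 5 types. The unfolded protein response sums overlapped in ganglion cells. The part of handling in the stress gene results was not tested. The 4 lists without a call in ganglion cells had none in the other types either, with 1 exception. Pdia4, a chaperone of the endoplasmic reticulum, was lower in progenitors (-0.62, SE 0.12, adjusted p 0.0303).

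The stress response list was called mainly in ganglion cells, and the difference between types was tested for each gene. Its median log2 difference was 0.09 in neurogenic cells, 0.02 in progenitors, 0.07 in cones and 0.12 in horizontal cells, with 29, 34, 32 and 24 genes tested. The summed list did not overlap between the groups in neurogenic cells (1449 and 1517 unscaled CPM in Bax het, 1535 and 1640 in double null). Nor did it in horizontal cells (1666 and 1705 against 1896 and 1898 CPM), whereas the groups overlapped in progenitors and cones. The calls in these types were Ppp1r15a, which encodes the eIF2 alpha phosphatase subunit GADD34 and was higher in progenitors (0.43, SE 0.09, adjusted p 0.0489, 56.0 kb from Bax), and Nars, which was lower in neurogenic cells and cones. In the fit of ganglion cells against progenitors, with the library as a block, 11 of 12930 genes had a higher difference in ganglion cells (0.0851%) and none a lower one. Of these 11, 6 belonged to the stress list: Ddit3 (0.82, SE 0.12, adjusted p 0.000337), Cebpb (2.41, SE 0.43, adjusted p 0.00709), Cth (1.60, adjusted p 0.0123), Atf3 (1.27, adjusted p 0.0331), Gars (0.47, adjusted p 0.0331) and Asns (0.62, adjusted p 0.0375). Atf4 (0.24, adjusted p 0.83), Bbc3 (0.46, adjusted p 0.614) and Cdkn1a (0.86, adjusted p 0.452) were not among them. This contrast rested on both Bax het libraries: without replicate 1 no gene was called, and without replicate 2 the only call was 1 gene with a lower difference.

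**Figure D3:**
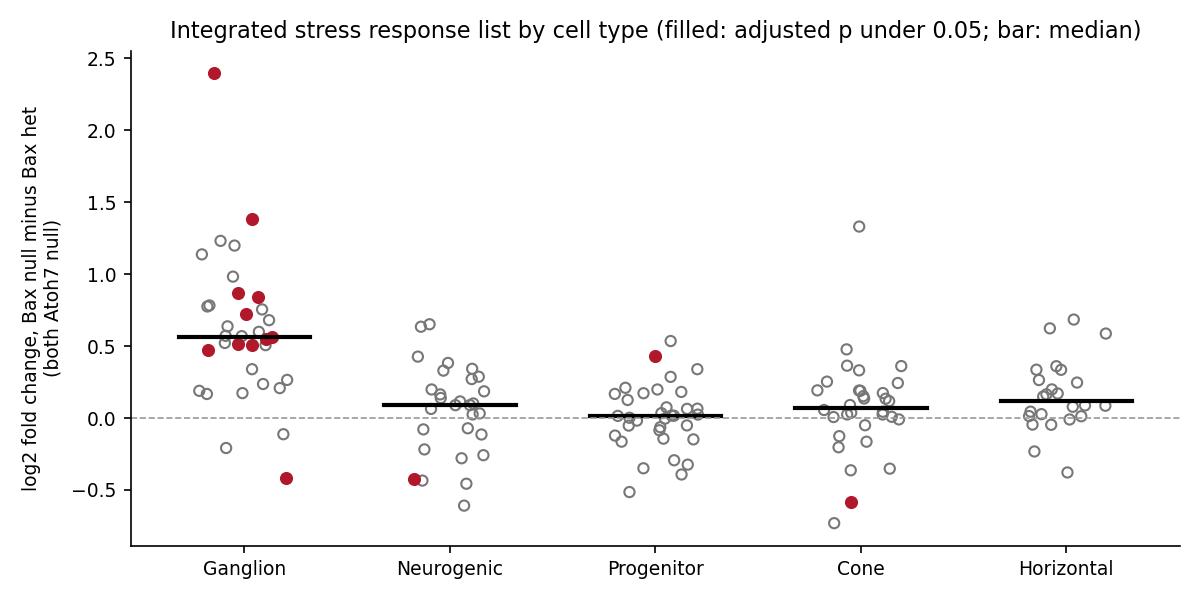
Log2 fold change of each tested gene of the stress response list, double null minus Bax het, in the 5 cell types; filled points passed the test and bars are medians. The ganglion cell median is 0.56 and the other medians lie between 0.02 and 0.12.

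Per cell, Atf3 was read in a small share of ganglion cells, whereas at least 1 UMI of the stress list was read in most of them. After each cell was thinned to 1000 UMIs, leaving out 80 and 56 shallower double null cells and no Bax het cell, an Atf3 UMI was found in 1.65% (Wilson 95% interval 0.923 to 2.93) and 1.70% (1.08 to 2.68) of Bax het ganglion cells and in 3.45% (2.51 to 4.72) and 4.90% (3.76 to 6.35) of double null ganglion cells. The unthinned shares were 4.05% and 3.22% against 6.59% and 7.12%, at median depths of 2624 and 2434.5 against 1954 and 1833.5 UMIs. In progenitors, taken as the background, the thinned share was between 0.274% and 0.425% in the 4 libraries, at median depths between 1713 and 2836 UMIs, so the ganglion cell shares lay above this background. In cones it was 0.936% and 0.685% in Bax het and 1.76% and 0.447% in double null, with 59 and 194 shallower double null cones left out. The share in cones of double null replicate 1 thus reached those of Bax het ganglion cells. Summed over the stress list, at least 1 UMI was found after thinning in 81.7% and 76.8% of Bax het and 81.3% and 81.9% of double null ganglion cells. For 3 or more UMIs the shares differed: 28.8% and 27.4% of Bax het cells against 36.8% and 36.7% of double null cells. The 90th percentile was 5 UMIs in both Bax het libraries and 8 and 9 in double null, while the median cell had 1 or 2 UMIs in all 4 libraries. These intervals cover counting error only.

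Within double null replicate 1, Atf3, Cdkn1a and the stress list sum differed between ganglion cells divided by Ftl1, whereas Rps29 and Pax6 differed little. Cells with barcodes shared with replicate 2 were set aside, and cells without an Ftl1 UMI (447) were compared with cells that had 3 or more (291). Bax stood at 36.1 CPM (exact Poisson 95% interval 25.3 to 50.03) in cells without Ftl1 and at 160.5 CPM (133.6 to 191.3) in cells with it, against 250.8 and 184.9 CPM in Bax het and 28.1 CPM in double null replicate 2. Atf3 stood at 71.3 CPM (55.7 to 89.9) without Ftl1 and 25.7 CPM (15.7 to 39.7) with it, and Cdkn1a at 53.2 CPM (39.8 to 69.6) and 24.4 CPM (14.7 to 38.1). The stress list summed to 3400 CPM without Ftl1 and 2673 CPM with it, against 2255 and 2188 CPM in the Bax het libraries and 3190 CPM in double null replicate 2. Not every stress gene followed this division: Atf4 stood at 276 and 266 CPM, Ddit4 at 120 and 123 CPM and Bbc3 at 141.5 and 136 CPM. Rps29, a small ribosomal subunit protein, stood at 718 CPM (666 to 772) without Ftl1 and 656 CPM (600.6 to 716) with it, both far below the 1748 and 1695 CPM of Bax het, and Pax6 at 973 and 918 CPM against 1385 and 1374. These are unscaled CPM in cells of 1 library, so no test between conditions applies, and the source of the Ftl1-positive cells was not tested. With all Ftl1-positive cells left out of both double null libraries, 16 of the 34 stress genes were higher in ganglion cells and 1 lower, and the difference of Atf3 was 1.59.

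**Figure D4:**
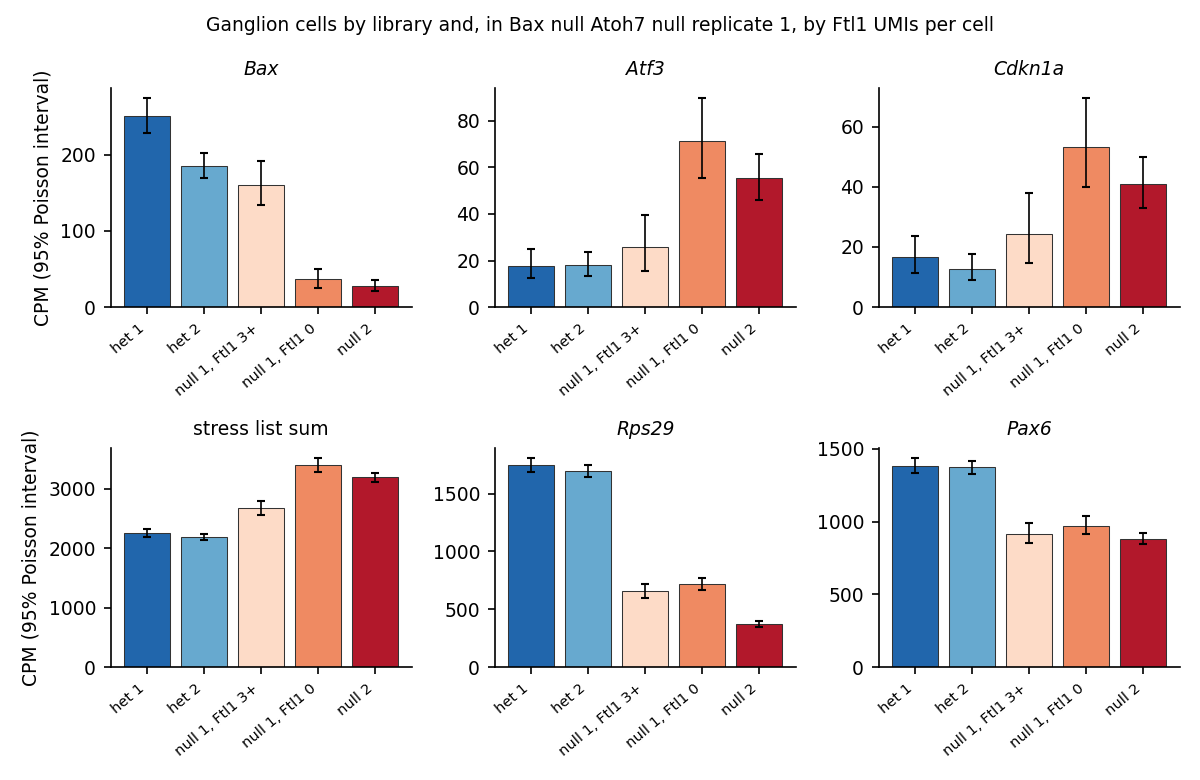
Levels in ganglion cells (CPM, bars from 0 with exact Poisson 95% intervals) in the Bax het libraries, in double null replicate 1 cells with 3 or more or with 0 Ftl1 UMIs (shared barcodes left out), and in double null replicate 2. Bax, Atf3, Cdkn1a and the stress list sum differ between the cells of replicate 1, whereas Rps29 and Pax6 are low in both.

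Genes of ganglion cell identity were little changed. Of 30 tested ganglion cell genes none was higher and 1 was lower, against 2.1% of all genes lower, with a median of -0.02. The called gene was Ebf1, a helix-loop-helix factor of differentiating ganglion cells, at 662 and 673 CPM in Bax het and 489 and 435 CPM in double null (-0.53, SE 0.12, adjusted p 0.0339), a call lost with the shared barcodes left out (adjusted p 0.0916) and without Bax het replicate 1 or 2 (0.156 and 0.258). The transcription factor genes Isl1 and Pou4f2 stood at 421 and 459 against 400.3 and 473 CPM and at 31.6 and 59.5 against 42.8 and 44.98 CPM, and for both the groups overlapped (differences -0.01 and -0.11, adjusted p 0.985 and 0.891). Among the higher genes outside the lists, Cacng3, an auxiliary subunit of AMPA receptors, stood at 15.3 and 24.7 against 34.2 and 42.0 CPM (0.87, adjusted p 0.0481), and the unannotated transcript 2900055J20Rik at 10.1 and 11.5 against 19.7 and 24.1 CPM (adjusted p 0.026). Nosip, 383 kb from Bax, rose by 0.71 (SE 0.13, adjusted p 0.0124). Other higher ganglion cell genes, named after their values were seen, were Casz1, Smchd1, Pik3ip1, Nr2f6, E2f2, Gm13889 and Cit.

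Pax6, the paired-box factor that progenitors, ganglion cells and horizontal and amacrine cells share, was lower in all 5 types. In horizontal cells it stood at 2116 and 2128 CPM in Bax het and 1256 and 1103 CPM in double null (-0.85, SE 0.14, adjusted p 0.00215), and in ganglion cells at 1270 and 1272 against 789.5 and 735 CPM (-0.74, SE 0.11, adjusted p 0.00429). In neurogenic cells, progenitors and cones the differences were -0.60, -0.54 and -0.61 (adjusted p 0.0284, 0.0337 and 0.0414). The Bax het libraries lay close together in each type, and no double null value reached them. Relative to progenitors, the difference in horizontal cells was larger in size by -0.35 (SE 0.07, adjusted p 0.022), 1 of 4 calls among 12698 genes in that contrast (0.0315%, with 0.00788% higher and 0.0236% lower). This last call was lost with the shared barcodes left out (0.174) and without Bax het replicate 2 (0.113), double null replicate 1 (0.252) or double null replicate 2 (0.0793). The Pax6 calls in the other 4 types were lost without Bax het replicate 2 at adjusted p-values between 0.059 and 0.289, and that in horizontal cells at 0.103. With the shared barcodes left out the calls were lost in neurogenic cells (0.0585), progenitors (0.0754) and cones (0.0587), and without Bax het replicate 1 in the same 3 types (0.151, 0.153 and 0.153). Neurod4, a proneural factor, was lower in ganglion cells, neurogenic cells and cones (-0.75, -0.76 and -0.64, adjusted p 0.0387, 0.0385 and 0.0167). With 1 of the 6 libraries left out in turn, Neurod4 was called in 0 of 6 fits in ganglion cells (adjusted p 0.0659 to 0.277), 2 in neurogenic cells and 3 in cones.

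In cones, few genes were higher. Gas2, which encodes a growth-arrest protein that binds the cytoskeleton, stood at 46.6 and 75.5 CPM in Bax het and 130.2 and 214 CPM in double null cones (1.46, SE 0.21, adjusted p 0.000609). In progenitors Gas2 was lower, at 12.5 and 10.8 against 6.94 and 6.22 CPM (-0.82, SE 0.14, adjusted p 0.0216). The difference between cones and progenitors was 2.28 (SE 0.23, adjusted p 2.26e-07), the only call among 12894 genes in that contrast (0.00776%), and it held under every alternative tried. Slc17a6, the vesicular glutamate transporter gene of ganglion cells, was lower in cones, at 103.5 and 62.5 against 28.5 and 8.50 CPM (-2.03, SE 0.31, adjusted p 0.000936). Gas2 and Slc17a6 lie on chromosome 7 at 6.40 and 6.16 Mb from Bax. Of 36 genes tested in cones between 1 and 10 Mb from Bax 4 were called (11.1%), against 1.42% on other chromosomes, and the others were Svip (6.53 Mb) and RP23-218K15.3 (1.54 Mb). The same window held no call among 43 genes in ganglion cells and 31 in horizontal cells, and 2.04% and 3.39% of genes were called in neurogenic cells and progenitors. The cone window was looked at because of Gas2 and Slc17a6, which are counted in it. Whether alleles linked to Bax differ between the groups was not tested.

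**Figure D5:**
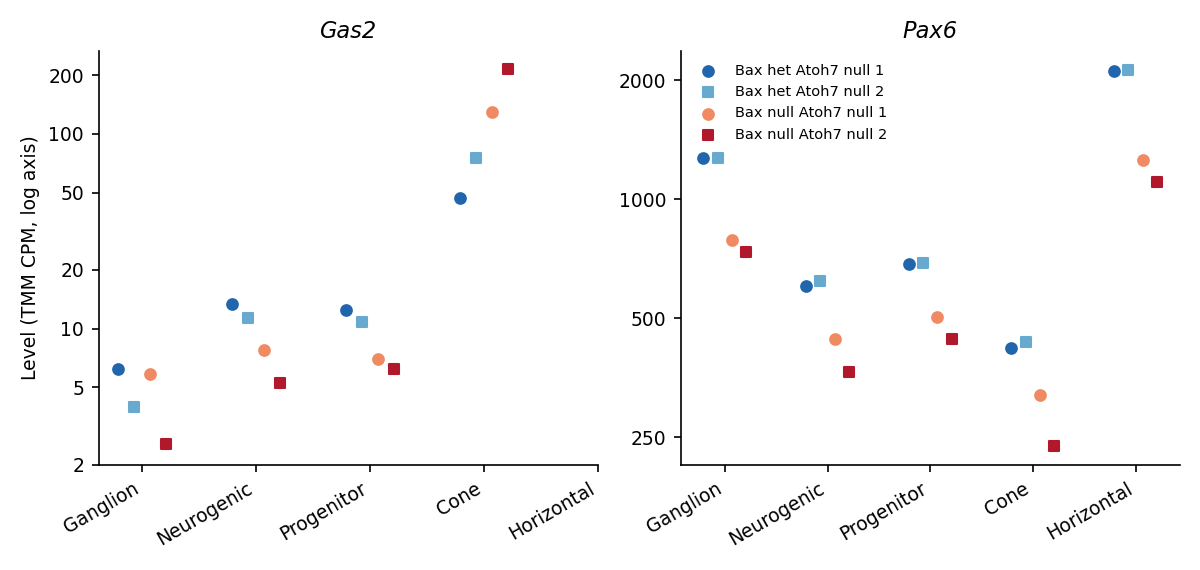
Levels of Gas2 and Pax6 (TMM-scaled CPM, logarithmic axes) in each cell type, 1 point per library; Gas2 was below the filter on low counts in horizontal cells. Double null points for Gas2 lie above Bax het in cones and below in neurogenic cells and progenitors, and those for Pax6 lie below Bax het in all 5 types.

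The other higher cone genes were Aldh1a1, a retinaldehyde dehydrogenase of the dorsal retina, at 48.1 and 29.5 against 93.3 and 64.2 CPM (1.06, SE 0.23, adjusted p 0.0167), and Gsto1, a glutathione transferase, at 23.3 and 16.5 against 40.1 and 47.2 CPM (1.12, SE 0.24, adjusted p 0.0152). Without Bax het replicate 2 both calls were lost (adjusted p 0.341 and 0.281), as was that of Aldh1a1 without double null replicate 1 (0.155). Of 14 tested cone and photoreceptor genes, Gngt2, the cone transducin gamma subunit, was the only call, at 1259 and 1517 against 835 and 644 CPM (-0.91, SE 0.16, adjusted p 0.00298), and the list median was 0.05. Bax itself was lower in cones by 1.58 on the log2 scale (fitted value -1.58, SE 0.25, adjusted p 0.001).

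Horizontal cells showed higher progenitor genes. Of 21 tested progenitor genes 3 were higher (against 0.067% of all genes) and 1, Pax6, was lower (against 1.54%). The list median was 0.24 against -0.00165 over all genes. Sox2, a transcription factor gene of progenitors, stood at 141 and 136 CPM in Bax het and 205 and 216 CPM in double null (0.60, SE 0.13, adjusted p 0.0162) and Id1, an inhibitor of helix-loop-helix factors, at 107 and 128 against 214 and 157 CPM (0.65, SE 0.16, adjusted p 0.0322). For both, the double null libraries lay above the Bax het libraries, and the difference from that in progenitors did not pass the test (0.40 and 0.32, adjusted p 0.621 and 0.812). The calls of Sox2 and Id1 were lost without Bax het replicate 1 (adjusted p 0.124 and 0.395) or replicate 2 (0.261 and 0.194). Id1 also lost its call with the shared barcodes left out (0.09), with Ftl1-positive cells left out (0.224) and without double null replicate 1 (0.319). The replication gene Clspn (1.41, adjusted p 0.0146), the carbonic anhydrase gene Car3 (1.43, adjusted p 0.0348) and Gm15545, which lies 467 kb from Bax (1.06, adjusted p 0.0493), were also higher. Among lower genes were Ptf1a, the factor that specifies horizontal and amacrine cells, at 416 and 428 against 290 and 266 CPM (-0.60, SE 0.13, adjusted p 0.0162), and Pcdh17, a protocadherin (-0.81, SE 0.16, adjusted p 0.00855). None of the 10 tested horizontal cell genes passed the test (list median -0.16). The cells labelled horizontal also carried amacrine cell genes. In them the 15 amacrine genes, which include Pax6 and Ptf1a, summed to 4109 and 4056 unscaled CPM in Bax het and 2802 and 3086 CPM in double null, while the 13 horizontal cell genes summed to 3169 and 2847 against 2836 and 3359 CPM. Of 11 tested amacrine genes Ptf1a and Pax6 were lower (against 1.54% of all genes) and none higher (median -0.25). Over all cells the amacrine sum was 1072 and 1139 against 815 and 843 CPM, so the groups did not overlap there either. The drop was not limited to horizontal cells. The sum was lower without overlap in every other type too, as in progenitors (847 and 845 against 665 and 643 CPM). Pax6, a member of the list, was lower in every type, and its part in these sums was not tested. The part of amacrine-like cells in the horizontal cell results was not tested.

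Neurogenic cells and progenitors had few higher genes. Ankrd37, a gene induced in low oxygen, was the only higher gene of neurogenic cells, at 27.96 and 25.2 CPM in Bax het and 41.4 and 40.7 CPM in double null (0.63, SE 0.11, adjusted p 0.0144), and it was higher in progenitors too, at 25.3 and 25.3 against 37.1 and 31.8 CPM (0.45, adjusted p 0.0425). Dab2ip, a Ras GTPase-activating protein gene, rose in progenitors by 0.44 (SE 0.09, adjusted p 0.0386). Of 25 tested S phase genes, Hells and Ccne2 were lower in neurogenic cells (-0.80 and -0.64, adjusted p 0.00457 and 0.0418) and Hells in progenitors (-0.74, adjusted p 0.0216), while the list medians were -0.07 and -0.05. Among all tested genes 1.76% were lower in neurogenic cells and 1.95% in progenitors. Hmgb2, a chromatin protein high in dividing cells, was lower in neurogenic cells, at 1357 and 1510 against 882 and 836 CPM (-0.74, SE 0.12, adjusted p 0.0105), and was the only call among 25 G2 and mitosis genes there. It was lower in progenitors too (-0.79, adjusted p 0.0176), again as the only call of the list. In ganglion cells and cones 1 gene of this list was lower, of 23 and 19 tested (against 2.1% and 1.43% of all genes). The values of Hmgb2 without 1 library, given below, are for neurogenic cells. Hes1, an effector of Notch signalling, was lower in progenitors (-0.62, adjusted p 0.0232). Without Bax het replicate 2 the adjusted p was 0.217 for Ankrd37 in neurogenic cells, 0.306 for Dab2ip and 0.2 for Hmgb2, and without Bax het replicate 1 it was 0.0637, 0.152 and 0.0578.

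Some genes were lower in every type. The 5 comparisons come from the same 4 libraries and are not independent of each other. Of 400 genes lower in at least 1 type, 72 were lower in all 5, which was between 27.6% and 53.3% of the lower genes of a type. None of the 42 genes higher in at least 1 type was higher in all 5. The 72 included 8 genes of cytosolic ribosomal proteins and 7 of oxidative phosphorylation. Rps29 stood at 1604 and 1570 CPM in Bax het and 574 and 307 CPM in double null ganglion cells (-1.85, SE 0.23, adjusted p 0.00135), and Usmg5, a subunit of the mitochondrial ATP synthase, at 454 and 505 against 165 and 89.95 CPM (-1.91, SE 0.20, adjusted p 0.00135). In both, double null replicate 1 lay between replicate 2 and the Bax het libraries. In ganglion cells 16 of 80 tested ribosomal protein genes and 23 of 84 tested oxidative phosphorylation genes were lower (against 2.1% of all genes) and none was higher, with medians of -0.19 and -0.21. In horizontal cells 17 of 80 and 22 of 83 were lower (against 1.54% of all genes), Ndufa3 of respiratory complex I among them at 246 and 267 against 96.5 and 38.3 CPM (-1.90, SE 0.23, adjusted p 0.000146).

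Transcript length moved with these calls. Of 177 ganglion cell genes whose longest annotated transcript was under 700 nucleotides, 41 were lower (23.2%, against 2.1% of all genes), with a median difference of -0.57. Of genes with 700 to 1500 nucleotides 4.32% were lower, and of those with 1500 to 3000 nucleotides 1.43%. The share among genes under 700 nucleotides was 15.7% in neurogenic cells, 14.3% in progenitors, 21.8% in cones and 22.8% in horizontal cells. The part of length in these calls was not tested. The lowest ganglion cell genes after Bax were Rps27rt (-1.97, adjusted p 0.0098), D630033O11Rik (-1.92, adjusted p 0.00143), Usmg5 and Toporsos (-1.87, adjusted p 0.00615).

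Of 109 genes within 1 Mb of Bax, 53 were tested in ganglion cells, where Atf5 and Nosip were higher and none was lower (3.77%, against 2.32% of genes on other chromosomes). In progenitors 64 were tested, with Ppp1r15a higher and Bcl2l12 (-0.41), Pth2 (-1.93) and Rcn3 (-0.74) lower (6.25% against 2.04%). The shares were 1.85% against 1.79% in neurogenic cells, 2.13% against 1.42% in cones and 4.26% against 1.61% in horizontal cells.

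Cell type shares did not pass the test in any type. Ganglion cells made up 6.93% and 9.31% of the Bax het libraries and 7.83% and 9.63% of the double null libraries, a log2 difference of 0.10 (SE 0.16, adjusted p 0.8). Horizontal cells made up 4.41% and 5.24% against 3.61% and 4.24% (-0.30, SE 0.18, adjusted p 0.578), and cones 5.55% and 6.43% against 5.42% in both (-0.14, SE 0.17, adjusted p 0.8). For these last 2 types the groups did not overlap, whereas they overlapped for ganglion cells, neurogenic cells and progenitors. The lowest adjusted p under any alternative was 0.143, for horizontal cells with TMM over the 5 types.

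Markers of other cells were low. Summed over all cells, 9 red blood cell genes stood at 112 and 27.9 CPM in Bax het and 241 and 9.08 CPM in double null, 14 microglia genes at 106 and 83.5 against 103 and 89.5 CPM, and 13 endothelial and pericyte genes at 94.0 and 88.3 against 93.9 and 90.7 CPM, with no member of these lists called in any type. These sums overlapped between the groups. The sums of 10 optic stalk and glia genes (36.1 and 32.8 against 40.1 and 39.3 CPM) and 12 lens genes (3.43 and 3.39 against 3.92 and 4.59 CPM) did not overlap, with no member called, and their part in the results was not tested. In horizontal cells the red blood cell sum was 118, 240.0, 229 and 3.63 CPM in the same order.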

How the data were processed

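Per the labels, the libraries were made with the 10x Genomics 3' v2 chemistry. The deposited table holds UMI counts per gene and cell, not normalized, and the authors' cell table gives library and cell type. The submitters' processing notes name Cell Ranger 1.2.1 and build mm10. Filters on cells are not given in the sources used here. Cells of 2 further libraries in the table (26078 cells, 28.0%) could not be matched to a sample and were not used. No doublet caller was run and no cell was removed.

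UMI counts were summed per library and cell type. The sums entered the quasi-likelihood test of edgeR 4.0.16 (R 4.3.3; limma 3.58.1; TMM scaling, filterByExpr, Benjamini-Hochberg adjustment over all genes tested). The fit used 6 libraries, so the Bax null libraries also entered the filter, the scaling and the spread. Differences between types were fitted as type minus progenitors over 4 libraries with the library as a block. Shares were tested by edgeR on the cell counts of the 5 types. An exact permutation test of 2 against 2 libraries cannot go below 0.33. DESeq2 1.42.0, other scaling and filters, leaving out each library, cells under 1200 UMIs and Ftl1-positive cells were alternatives. Leaving out shared barcodes was added after seeing the data. The fits were tested on simulated data: in ganglion cells 69.9% of 93 genes changed 2-fold and 87.8% of 98 changed 4-fold were recovered, with 11 other calls among 10145 genes. The simulated libraries were independent, with the same spread setting for all genes. They had no shared cells and no mixed Bax level, so these rates need not hold for the real libraries.

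Members and lists were chosen with earlier results of these data known. Named genes were Bax, Atoh7 and Ftl1, up to 5 highest and 5 lowest called genes per type with at least 20 CPM in the higher group and no overlap between groups, leaving out pseudogenes and sex-linked genes, and called or defining members of lists. Gene positions came from GENCODE M21, which matched 27645 gene identifiers (98.7%). Results on some genes are not reported here. Intervals cover counting error only.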

Additional observations from a re-analysis of the deposited data

Results flagged for a closer look

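A test of the difference between cell types picked out the results given here, each the double null minus Bax het log2 difference in 1 type minus that in progenitors (edgeR, library as a block). In ganglion cells these were Ddit3 (0.82), Atf3 (1.27), Cebpb (2.41), Cth (1.60), Gars (0.47) and Asns (0.62) of the stress response list, and Hist1h2bc (0.65), Gm13889 (1.48), Cit (1.52) and Qpct (1.90). None of these was called without Bax het replicate 1 or without Bax het replicate 2.

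In cones Gas2 differed by 2.28. In horizontal cells Pax6 differed by -0.35. The globin genes Hbb-bt (-2.61) and Hbb-bs (-1.93) also differed there, with Hbb-bt at 17.8, 56.6, 27.7 and 1.03 CPM and Hbb-bs at 45.8, 82.0, 72.4 and 2.07 CPM in Bax het replicates 1 and 2 and double null replicates 1 and 2, so double null replicate 1 lay within the Bax het range. Gsg2, which encodes the mitotic kinase haspin, had a fitted difference of 9.15 that depends on the prior count. It had 0 UMIs in horizontal cells of both Bax het libraries and 7 and 9 in double null, at least 6.66-fold higher against a floor of 3 UMIs over the group.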

How the results depend on the processing

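Of 94 named calls, all kept their sign under every alternative that gave a value and 13 were called in every one, among them Atf3 and Bbc3 in ganglion cells and Gas2 in cones. Still called were 65 with the shared barcodes left out, 41 without Bax het replicate 1 and 18 without Bax het replicate 2. With 2 libraries a group, single libraries decided most calls.

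Counts of called genes moved as follows. With no filter on low counts they were 499 (ganglion cells), 523 (neurogenic cells), 666 (progenitors) and 220 (horizontal cells), and 3 and 2 for neurogenic cells and cones minus progenitors. With only the 4 Atoh7 null libraries they were 154, 126, 153, 70 (cones), 93 (horizontal cells) and 60 (all cells). DESeq2 called 79 in cones, 71 in horizontal cells and 460 over all cells. With shared barcodes left out they were 98 in progenitors, 100 over all cells and 0 for horizontal cells minus progenitors, and with Ftl1-positive cells left out as well 107, 126 and, for neurogenic cells minus progenitors, 1. Without cells under 1200 UMIs the latter was 1 and cones minus progenitors 6, and without Ftl1-positive cells neurogenic cells minus progenitors gave 2. The cause was not tested.

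Leaving out 1 library gave 73 to 433 genes in ganglion cells, 7 to 466 in neurogenic cells, 2 to 655 in progenitors, 62 to 294 in cones, 18 to 267 in horizontal cells and 0 to 662 over all cells, and minus progenitors 0 to 46, 0 to 19, 1 to 11 and 5 to 20 for the first 2 types, cones and horizontal cells. In the edgeR fit of neurogenic cells minus progenitors over all libraries 0 genes were called and 534 had an unadjusted p under 0.05. Share differences ranged from -0.094 to 0.33 (ganglion cells), -0.13 to 0.048 (neurogenic cells), -0.033 to 0.10 (progenitors), -0.25 to -0.03 (cones) and -0.42 to -0.17 (horizontal cells), and TMM gave 0.000357 for neurogenic cells. Signs also turned for the share of neurogenic cells without Bax het replicate 2 (0.02), of ganglion cells without double null replicate 2 (-0.05) and of progenitors without double null replicate 1 (-0.02), and for Isl1 (-0.14 to 0.10 when 1 library was left out, 0.06 without Bax het replicate 2) and Pou4f2 (-0.44 to 0.48, the latter without Bax het replicate 2).

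The labels number the libraries but do not state a pairing. Deviations of same-numbered libraries correlated at 0.17 in ganglion cells, 0.20 in neurogenic cells, 0.19 in progenitors, 0.08 in cones, 0.04 in horizontal cells and 0.24 over all cells. With the replicate number as a block 45 genes were higher and 281 lower in ganglion cells, and 401 were called in progenitors and 331 over all cells. Nars in neurogenic cells (adjusted p 0.0511) and Pax6 in cones (0.0597) lost their calls.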
